A study of Homo sapiens with 5 samples.

Results

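DNA replication origin and fork genes were followed through the loss of a splicing factor by the retention of their introns. The set held 51 genes: the origin recognition complex, the licensing factors and MCM helicase subunits, the factors that switch the helicase on, the replicative polymerases and primase, the PCNA clamp and its loader, and proteins that bind, protect or trim DNA at the fork. All introns of these genes in the 3 deposited tables were members when the intron's read depth plus its spliced reads reached 10 in both libraries of a table. By this rule 224 introns in 46 of the genes were tested, of 33693 tested introns in the whole series, and 29 of them were tested in all 3 tables. A tested intron in every table was present for 31 genes. Members were 92 of 16068 tested introns for WBP11 RNAi, 116 of 23366 for SNW1 RNAi and 151 of 21828 for WBP11 auxin.

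DNA replication starts where the origin recognition complex, with CDC6 and CDT1, loads rings of MCM subunits onto DNA, a step called licensing. The rings become working helicases when CDC45 and the GINS complex join them, helped by TOPBP1, TICRR and MCM10, after which polymerase α with primase lays primers, polymerase ε copies the leading strand and polymerase δ the lagging strand. RFC loads the PCNA clamp, RPA coats single-stranded DNA, TIMELESS, TIPIN and CLSPN protect the fork, and FEN1 and DNA2 trim the flaps of lagging-strand fragments.

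Retention was measured by polyA RNA sequencing of DLD-1, a human colorectal adenocarcinoma line, with 1 library per group in 5 libraries. DLD-1 LacZeo cells received WBP11 siRNA or SNW1 siRNA (each 100 nM for 72 h), and both are set against the same control library of DLD-1 LacZeo, whose treatment is given as none in the labels, while the file headers name it control RNAi. In the auxin pair both libraries carry the label DLD-1 LacZeo osTIR1 (osTIR1 is the plant receptor through which auxin marks tagged proteins for destruction) and both received 500 µM auxin for 48 h. The design text describes the depleted cells of this pair as carrying an AID-tagged WBP11 transgene in cells whose own WBP11 was knocked out. WBP11 is a spliceosome-associated protein and SNW1 is a component of the activated spliceosome. There is no library of the degron cells without auxin, so a difference between the cell lines and the loss of WBP11 cannot be told apart, and the labels name no separate cultures and no number of clones.

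The retention ratio estimates how many of the transcripts crossing an intron still contain it, given here in percent, and its differences are in percentage points, depleted minus control. An intron is called higher ("rose") or lower ("fell") when its ratio differed by at least 10 points. With 1 library per group no test between samples was possible and no difference has a replicate check. The intervals in the text are 95% Wilson intervals for a ratio and 95% Newcombe intervals for a difference. Beside a ratio of 0%, the share that 3 reads would have made of the total is given as a limit. These intervals and limits cover counting error only, and reads without molecular identifiers are not independent molecules. The listed introns held between 2987572 and 5527186 spliced reads per library and table. WBP11 spliced reads stood at 6.75% of control after WBP11 RNAi and SNW1 spliced reads at 10.2% after SNW1 RNAi, as a share of all spliced reads in the table. WBP11 stood at 38.0% in the auxin pair, where the protein is the target. Epithelial markers were listed in each table (3, 4 and 4 of 10 genes for WBP11 RNAi, SNW1 RNAi and WBP11 auxin), with KRT18, KRT19 and CDH1 in all of them, and none of 12 fibroblast, leukocyte and endothelial markers was listed.

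The sequences behind the introns with the largest changes are shown first, because most of these introns are very short. They were read from GENCODE release 29 transcripts of GRCh38 (hg38), which hold the whole intron only where an annotated transcript keeps it. Capitals mark the first 6 bases, the 5′ splice site, and the last 3 bases, the 3′ splice site. The introns are RFC4 intron 9 of 10 (chr3:186790256-186790325, minus strand, 70 bp), MCM7 intron 4 of 14 (chr7:100099204-100099278, minus strand, 75 bp), PRIM1 intron 3 of 12 (chr12:56746855-56746925, minus strand, 71 bp) and TIMELESS introns 21 and 23 of 28 (chr12:56421810-56421898, 89 bp, and chr12:56421135-56421350, 216 bp, minus strand). All lie between coding exons.
RFC4 intron 9: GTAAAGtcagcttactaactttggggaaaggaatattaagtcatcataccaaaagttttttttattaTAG
MCM7 intron 4: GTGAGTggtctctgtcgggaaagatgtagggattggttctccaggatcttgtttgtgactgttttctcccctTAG
PRIM1 intron 3: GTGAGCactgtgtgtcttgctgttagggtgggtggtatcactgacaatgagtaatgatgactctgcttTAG
TIMELESS intron 21: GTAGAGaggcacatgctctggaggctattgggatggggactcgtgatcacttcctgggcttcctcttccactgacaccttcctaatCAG
TIMELESS intron 23: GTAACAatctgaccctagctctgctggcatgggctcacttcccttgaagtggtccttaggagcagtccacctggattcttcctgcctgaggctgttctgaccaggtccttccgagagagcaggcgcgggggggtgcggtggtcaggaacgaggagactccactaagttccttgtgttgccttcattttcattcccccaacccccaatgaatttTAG

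For other introns with large changes, most of them very short, the spliced junction is shown, since it is what the spliced reads cover. The last 15 bases of the upstream exon are in lower case and the first 15 of the downstream exon in capitals. They are POLE intron 17 of 48 (chr12:132668738-132668810, minus strand, 73 bp), POLE intron 34 (chr12:132643331-132643406, minus strand, 76 bp), POLD1 introns 6 and 8 of 26 (chr19:50402374-50402453, 80 bp, and chr19:50402742-50403052, 311 bp, plus strand), CDT1 intron 8 of 9 (chr16:88807204-88807280, plus strand, 77 bp) and CDC45 intron 14 of 18 (chr22:19514888-19514964, plus strand, 77 bp), all between coding exons.
POLE junction 17: accaaccgcctgcagCCCTCTGCCATGGTG
POLE junction 34: gctacctggaaccagGGAGTATCCGCCATA
POLD1 junction 6: cgactttgagatccgGTTCATGGTGGACAC
POLD1 junction 8: gcgccggccgcaaagGCATCTTCCCTGAGC
CDT1 junction 8: gatctgctggagcggATCCGAGCCAAGGAG
CDC45 junction 14: tgctctctcatggagGGCACTCCAGATGTC

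After WBP11 RNAi 7 of 92 replication introns rose (7.61%, against 9.07% of all introns tested), in MCM7, POLD1, POLE, RFC4 and TIMELESS. After SNW1 RNAi 11 of 116 rose (9.48%, against 16.6% of all), in DNA2, GINS4, ORC2, POLD1, POLE and TIMELESS. In the auxin pair 19 of 151 rose (12.6%, against 13.8% of all), in 13 genes. The share after WBP11 RNAi and in the auxin pair was near that of all introns, and the share after SNW1 RNAi was lower than that of all. No replication intron fell by 10 points in any comparison, where 1.69%, 0.359% and 1.37% of all introns did after WBP11 RNAi, SNW1 RNAi and WBP11 auxin.

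The median change of the replication introns was 1.06 points after WBP11 RNAi (0.76 over all introns), 2.17 points after SNW1 RNAi (2.63 over all) and 1.23 points in the auxin pair (1.45 over all). Retention was above control at 68.5% of replication introns after WBP11 RNAi (59.6% of all), 87.1% after SNW1 RNAi (91.3% of all) and 70.9% in the auxin pair (72.8% of all). An interval of the difference wholly above 0 was seen for 9 introns after WBP11 RNAi (9.78%, against 14.2% of all), for 19 after SNW1 RNAi (16.4%, against 31.0%) and for 39 in the auxin pair (25.8%, against 20.6%). It lay below 0 for none after WBP11 RNAi (3.67% of all), for 1 after SNW1 RNAi (0.862%, against 0.291% of all) and for 10 in the auxin pair (6.62%, against 2.14% of all). The replication introns of the auxin pair rested on more reads, with a median depth plus spliced reads of 181 in the depleted library and 166 in its control, against 125 and 98.8 over all introns.

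**Figure D1:**
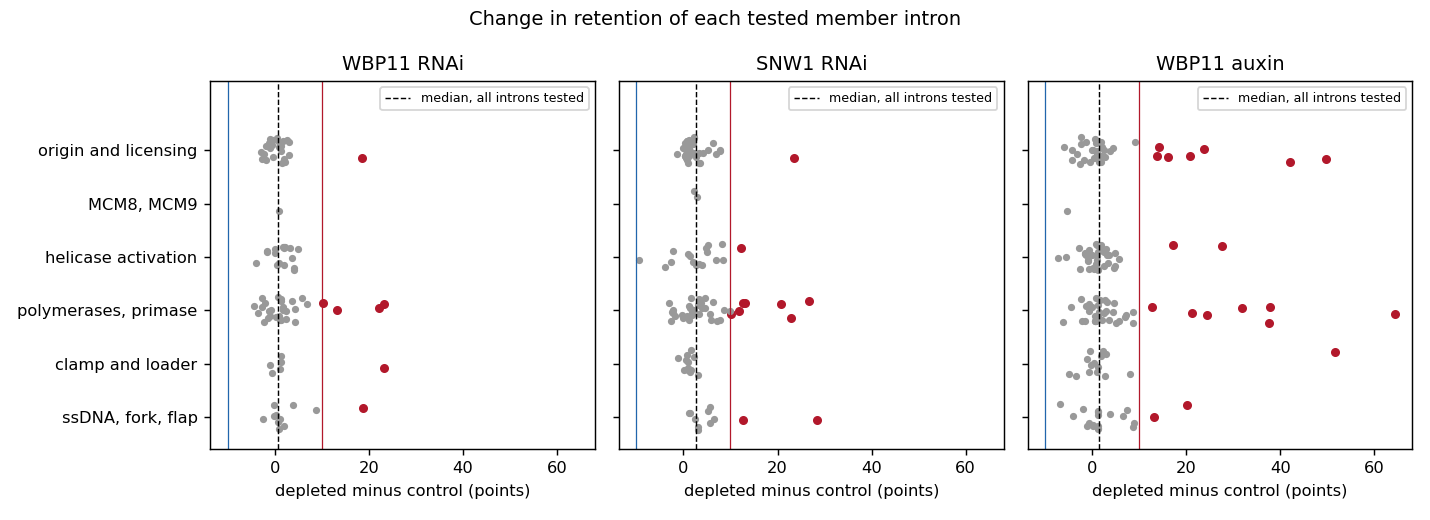
Difference in retention, depleted minus control in percentage points, for each tested replication intron, by role of the gene and comparison. Red points rose by 10 points or more, grey points did not, the dashed line is the median of all introns tested, and solid lines mark 10 points either way. The rises reach 23.2 points after WBP11 RNAi, 28.4 after SNW1 RNAi and 64.4 in the auxin pair.

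Origin recognition and licensing genes had 1 of 25 introns higher after WBP11 RNAi (4%, against 9.07% of all introns). They had 1 of 37 higher after SNW1 RNAi (2.70%, against 16.6% of all) and 7 of 38 in the auxin pair (18.4%, against 13.8% of all). MCM7 encodes a subunit of the MCM helicase ring. Its intron 4 was retained at 25.4% in the WBP11 RNAi library, 8.43% in the SNW1 RNAi library and 6.84% in their control, and at 55.9% in the auxin-treated degron cells against 6.23% in the auxin control. The difference was 18.6 points after WBP11 RNAi (13.8 to 23.2), 1.58 points after SNW1 RNAi and 49.6 points in the auxin pair (46.2 to 52.9). The name field of the table marks this intron as overlapping an annotated exon, and annotated transcripts of MCM7, protein coding ones included, retain it.

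CDT1, the licensing factor that brings MCM rings to the origin complex, rose at both of its last introns in the auxin pair. Its intron 8 stood at 53.3% against 11.2% (42.1 points, 35.5 to 47.8), with 207 against 206 spliced reads. Its intron 9, 632 bp long, stood at 29.6% against 15.3% (14.2 points, 7.22 to 20.8). At introns 4 and 6 of the same gene the interval of the difference lay below 0, with 0.769% against 3.38% and 2.18% against 5.42%. After WBP11 RNAi intron 8 stood at 4.98% against 2.42% and intron 9 at 4.69% against 7.69%, both within 10 points.

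ORC2, a subunit of the origin recognition complex, rose at intron 16 of 17 (chr2:200913414-200913930, minus strand, 517 bp) after SNW1 RNAi, with 37.8% against 14.3% (23.5 points, 11.5 to 34.0). After WBP11 auxin this intron stood at 45.2% against 21.5% (23.7 points, 13.0 to 33.5). This intron was not listed for WBP11 RNAi. ORC2 intron 7, 3281 bp, rose in the auxin pair, with 14.6% against 0.916%. ORC4, another subunit of the complex, rose in the auxin pair at intron 12 of 13 (84 bp), with 25.7% against 5.01% (20.7 points), and stood at 9.53% after SNW1 RNAi and 6.27% after WBP11 RNAi against 3.16% in their control.

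MCM5, another ring subunit, rose at intron 3 of 16 (80 bp) in the auxin pair, with 16.3% against 0.0790% (16.2 points, 13.3 to 19.4), on 494 against 488 spliced reads. Within MCM5 the other introns moved in both directions in that pair, with intervals above 0 at intron 6 (10.1% against 1.06%) and below 0 at intron 15 (0.913% against 3.32%) and intron 16 (3.75% against 8.04%). ORC1, ORC3, ORC5, ORC6, CDC6, MCM2, MCM3, MCM4 and MCM6 had no rise in any table that tested them. MCM8, which acts with MCM9 in recombination and not in the helicase ring, had no rise either, and the only listed intron of MCM9 stayed under the depth minimum.

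Among the genes of helicase activation no intron of 17 rose after WBP11 RNAi (9.07% of all introns did). There 1 of 17 rose after SNW1 RNAi (5.88%, against 16.6% of all) and 2 of 36 in the auxin pair (5.56%, against 13.8% of all). CDC45, which completes the active helicase with GINS, rose at intron 14 in the auxin pair with 37.2% against 9.53% (27.7 points, 17.9 to 37.5), on 70 against 172 spliced reads. GINS4, a GINS subunit, rose at intron 6 of 7 (1804 bp) after SNW1 RNAi, with 17.2% against 4.93% (12.3 points, -1.96 to 32.3; 9.64 points after centring the table on its median over all introns), and in the auxin pair, with 22.4% against 5.29% (17.1 points, 8.30 to 26.5). An exon of a gene on the opposite strand overlaps this GINS4 intron in the annotation, and strandedness is not given in the sources used here. TOPBP1, which helps assemble the helicase and activates the ATR checkpoint, had no rise in 12 tested introns. Its intron 9 was the only replication intron after SNW1 RNAi with an interval below 0, at 2.87% against 12.3% (-9.38 points, -19.8 to -1.14). MCM10, TICRR, WDHD1, GINS1 and GINS3 had no rise.

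The polymerase and primase genes held 4 of the 7 rises after WBP11 RNAi (of 32 introns), 7 of the 11 after SNW1 RNAi (of 37) and 7 of the 19 in the auxin pair (of 41). As shares of the group's introns these were 12.5%, 18.9% and 17.1%, against 9.07%, 16.6% and 13.8% of all introns. All of the rises in this group after either siRNA were in POLE and POLD1, the catalytic subunits of polymerases ε and δ. Without POLE and POLD1 the replication set had 3 of 69 (4.35%), 4 of 93 (4.30%) and 14 of 131 (10.7%) introns higher after WBP11 RNAi, SNW1 RNAi and WBP11 auxin. The 2 genes contributed 23, 23 and 20 of the tested introns. They were left out with their rises known, and no genes were left out of all introns. The lower shares follow from this choice.

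POLE intron 17 rose in every comparison. It stood at 41.9% after WBP11 RNAi and 42.4% after SNW1 RNAi, against 19.7% in their control, with differences of 22.2 points (1.91 to 38.9) and 22.8 points (1.32 to 41.2). After WBP11 auxin it stood at 86.2% against 21.8% (64.4 points, 53.3 to 72.8), the largest difference among the replication introns, and 17 spliced reads remained against 73. POLE intron 2 of 48 (450 bp) stood at 15.03% after WBP11 RNAi and 14.6% after SNW1 RNAi against 1.85%, and at 7.16% against 1.41% in the auxin pair, which was within 10 points. POLE intron 39 (2348 bp) was higher after WBP11 RNAi, with 14.4% against 4.23% and an interval of the difference of -1.97 to 24.7 points. POLE introns 44 (13.0% against 0%) and 24 (23.1% against 11.4%, interval -9.84 to 32.7) were higher after SNW1 RNAi. The control value of 0% at intron 44 rests on 50 reads, of which 3 reads would make 6%. With each table centred on its median over all introns, introns 39 (9.40 points) and 24 (9.14 points) were within 10 points. POLE intron 34 rose in the auxin pair, with 25.5% against 1.14% (24.3 points, 16.6 to 31.3).

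POLD1 intron 8 was the largest rise after WBP11 RNAi, with 28.5% against 5.32% (23.2 points, 12.7 to 33.2), and stood at 32.1% after SNW1 RNAi (26.8 points, 15.6 to 37.6). It was not listed in the auxin table. After SNW1 RNAi POLD1 also rose at intron 15 (220 bp), with 23.0% against 2.27% (20.7 points, 10.9 to 32.4), and at intron 20 (447 bp), with 13.4% against 3.33%, a difference that was 7.40 points after median centring. After WBP11 auxin POLD1 rose at 3 other introns: intron 6 with 50.3% against 12.7% (37.5 points, 29.04 to 44.9), intron 18 (220 bp) with 27.5% against 6.38%, and intron 4 (74 bp) with 13.1% against 0.358%. After WBP11 RNAi intron 6 stood at 6.94% against 6.71%, and intron 15 at 1.11% against 2.27%.

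PRIM1, the catalytic subunit of primase, rose at intron 3 in the auxin pair, with 42.8% against 5.05% (37.8 points, 26.2 to 48.3), and stood at 1.995% against 0.565% after WBP11 RNAi. POLA1, the catalytic subunit of polymerase α, rose at intron 9 of 36 (88 bp) in the auxin pair, with 31.9% against 0% (31.9 points, 14.1 to 55.1). That value rests on 12 spliced reads against 59, and 3 of the 59 control reads would make 5.08%. POLD2, the accessory subunit of polymerase δ, had no rise, but all 5 of its tested introns in the auxin pair had an interval above 0, with differences from 1.10 points at intron 9 to 7.10 points at intron 5 (12.4% against 5.35%). POLA2, POLD3, POLE2, POLE3 and POLE4 had no rise.

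In the clamp and clamp loader group 1 of 6, 0 of 12 and 1 of 15 introns rose after WBP11 RNAi, SNW1 RNAi and WBP11 auxin, in each case RFC4 intron 9. The shares were 16.7%, 0% and 6.67%, against 9.07%, 16.6% and 13.8% of all introns. RFC4 encodes a small subunit shared by the clamp loaders. Its 70 bp intron stood at 44.1% after WBP11 RNAi, 22.5% after SNW1 RNAi and 20.9% in their control. The difference was 23.2 points after WBP11 RNAi (14.9 to 31.0) and 1.59 points after SNW1 RNAi. After WBP11 auxin it stood at 86.5% against 34.8% (51.7 points, 45.2 to 57.5), with 64 spliced reads against 200. At RFC4 introns 1 and 8 the interval of the difference lay below 0 in that pair (2.44% against 7.43%, and 1.71% against 5.18%). PCNA, the clamp itself, stayed low: its 3 tested introns in the auxin pair stood at 1.16% to 3.74% in the degron cells and 0.957% to 1.92% in the control. RFC1, RFC2, RFC3 and RFC5 had no rise, and the largest of their differences was at RFC5 intron 9 in the auxin pair, with 13.1% against 4.97%.

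Among the genes of single-stranded DNA binding, fork protection and flap processing, 1 of 11, 2 of 11 and 2 of 20 introns rose after WBP11 RNAi, SNW1 RNAi and WBP11 auxin. The shares were 9.09%, 18.2% and 10%, against 9.07%, 16.6% and 13.8% of all introns. TIMELESS, which with TIPIN keeps the helicase and polymerases together at the fork, rose at intron 23 in every comparison. It stood at 27.8% after WBP11 RNAi and 21.7% after SNW1 RNAi against 9.08% in their control, with differences of 18.7 points (10.1 to 27.3) and 12.6 points (3.49 to 23.0), and at 39.6% against 19.5% in the auxin pair (20.1 points, 11.3 to 28.8). TIMELESS intron 21 rose in the auxin pair, with 19.9% against 6.76% (13.2 points, 6.48 to 20.3), and stood at 1.40% against 3.97% after WBP11 RNAi. The introns of this gene did not move as a block: intron 22, which lies between these, stood at 6.14% against 7.16% in the auxin pair. DNA2, a nuclease and helicase that trims flaps, was higher at its last intron, in the 3′ UTR, after SNW1 RNAi, with 31.3% against 2.92%. That value rests on a depth plus spliced reads of 10.2 and 12.2, close to the minimum of 10, with an interval of -3.64 to 58.4 points, and the intron stood at 3.48% against 10.3% in the auxin pair. RPA1, RPA2, RPA3, CLSPN and FEN1 had no rise.

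**Figure D2:**
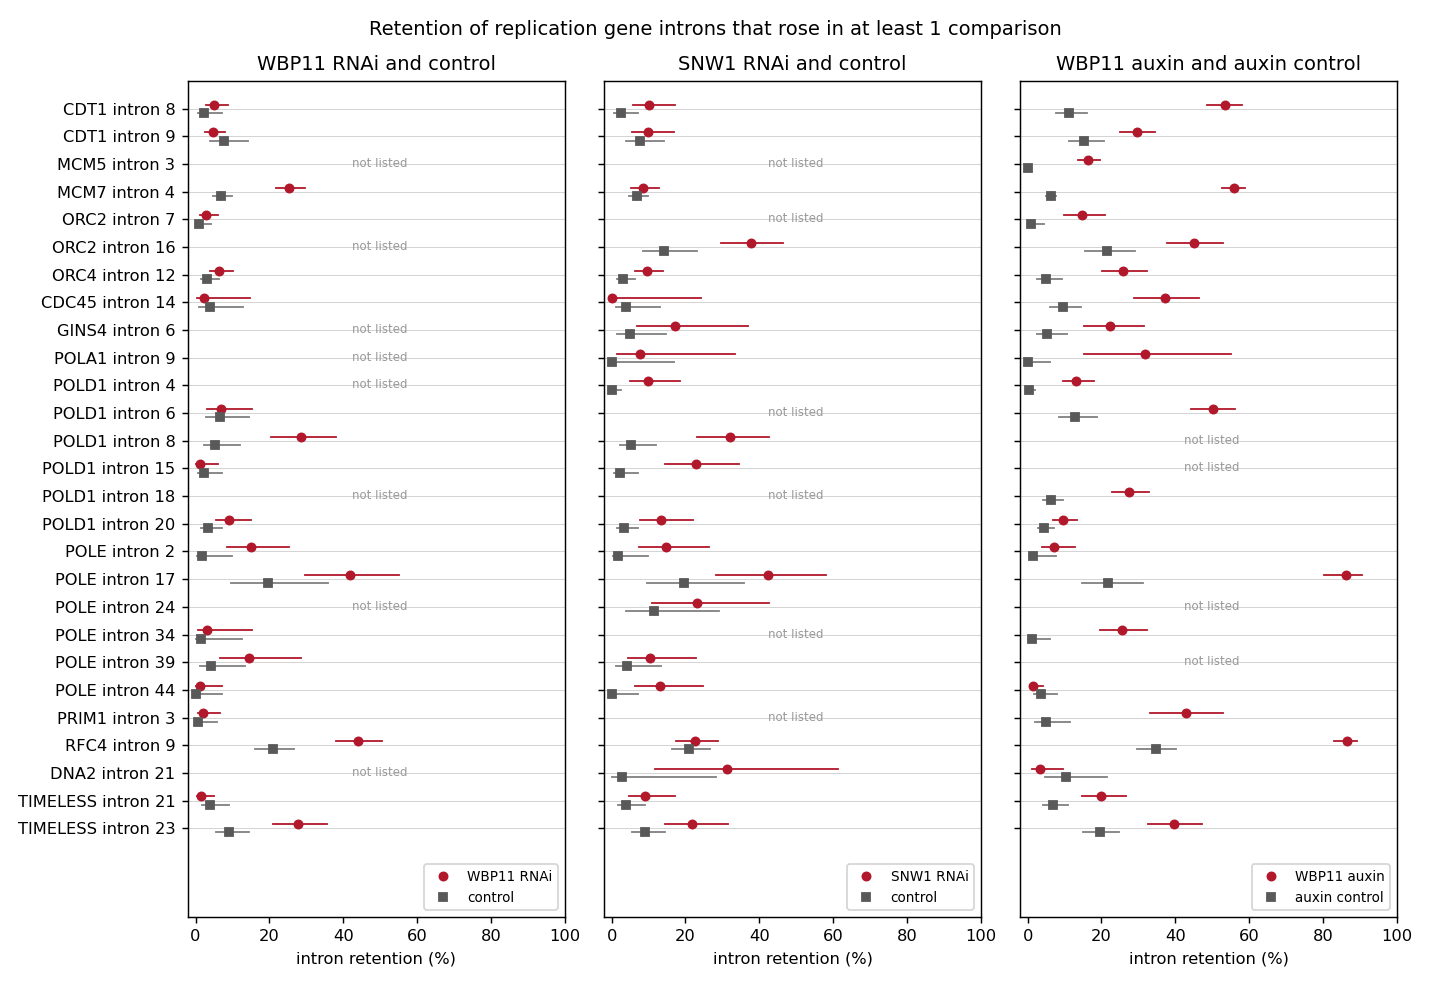
Retention in percent of the 27 replication introns that rose in at least 1 comparison, in the depleted library (red circles) and its control (grey squares) of each comparison, with 95% Wilson intervals as lines. POLE intron 17 and RFC4 intron 9 reach 86.2% and 86.5% in the auxin pair, and their separation from control is smaller after either siRNA.

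Counted over the comparisons, 14 of the 46 genes with a tested intron had a rise in at least 1 of them (30.4%, against 33.9% of all genes with a tested intron). By comparison these were 5 of 33 genes after WBP11 RNAi (15.2%, against 15.5% of all), 6 of 43 after SNW1 RNAi (14.0%, against 27.4% of all) and 13 of 43 in the auxin pair (30.2%, against 25.8% of all). The genes were POLD1, POLE and TIMELESS in all 3, ORC2, MCM7, GINS4 and RFC4 in 2, and ORC4, CDT1, MCM5, CDC45, POLA1, PRIM1 and DNA2 in 1. The 27 different introns that rose were distributed as 19 in 1 comparison, 6 in 2 and 2 in all 3. Of the 45 introns tested in both WBP11 depletions, 5 rose after WBP11 RNAi and 13 in the auxin pair, and 4 of these rose in both (80.0% of the WBP11 RNAi rises and 30.8% of the auxin rises): POLE intron 17, TIMELESS intron 23, RFC4 intron 9 and MCM7 intron 4. Overlaps between comparisons were not counted over all introns, so whether this overlap is particular to replication genes was not tested. The WBP11 RNAi and SNW1 RNAi comparisons share their control, so the depleted libraries were also set against each other directly. Of 60 replication introns tested in both, 2 were higher in the WBP11 RNAi library than in the SNW1 RNAi library (2.08% of all introns were), RFC4 intron 9 by 21.6 points (12.9 to 29.7) and MCM7 intron 4 by 17.0 points (11.1 to 22.1). POLD1 intron 15 (-21.9 points, -33.5 to -12.0) and POLE intron 44 (-11.8 points, -23.7 to -2.93) were lower in the WBP11 RNAi library, where 16.5% of all introns were. The median difference was -1.19 points over replication introns and -2.69 over all.

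The controls of both experiments were also compared. Of 59 replication introns tested in both, 2 were higher in the auxin control than in the RNAi control (5.07% of all introns were) and none was lower (0.775% of all were). These were RFC4 intron 9, with 34.8% against 20.9% (13.8 points, 6.24 to 21.1), and TIMELESS intron 23, with 19.5% against 9.08% (10.4 points, 3.42 to 16.8). CDT1 intron 8 stood at 11.2% in the auxin control and 2.42% in the RNAi control.

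The rises in the auxin pair lay mostly in very short introns. Of introns up to 100 bp, 13 of 28 replication introns rose in the auxin pair (46.4%, against 39.2% of all introns of that length), 3 of 14 after WBP11 RNAi (21.4%, against 16.4% of all) and 1 of 17 after SNW1 RNAi (5.88%, against 26.9% of all). Of introns over 100 and up to 500 bp 2 of 43 rose in the auxin pair (4.65%, against 12.7% of all), and of longer ones 4 of 80 (5%, against 6.03% of all). Over 100 and up to 500 bp 3 of 36 rose after WBP11 RNAi (8.33%, against 12.8% of all) and 7 of 44 after SNW1 RNAi (15.9%, against 23.1% of all), and among longer introns 1 of 42 (2.38%, against 3.28% of all) and 3 of 55 (5.45%, against 8.70% of all). The median length of the replication introns that rose in the auxin pair was 80 bp, and that of the introns that did not was 695 bp. After SNW1 RNAi the medians were 362 bp and 495 bp, and after WBP11 RNAi 216 bp and 385 bp. Both WBP11 depletions had higher shares among introns up to 100 bp than over all replication introns. SNW1 RNAi did not, on 1 of 17 introns. Over the introns of all genes SNW1 RNAi also had the higher share among short ones, with 26.9% up to 100 bp against 16.6% of every length. Short introns that did not rise were also present in the auxin pair, such as PCNA intron 5 (86 bp, 3.74% against 0.957%), POLD1 intron 7 (76 bp, 8.68% against 0%, with 3 control reads making 1.16%, interval of the difference 5.58 to 12.5 points) and MCM4 intron 3 (88 bp, 1.93% against 0.0415%).

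**Figure D3:**
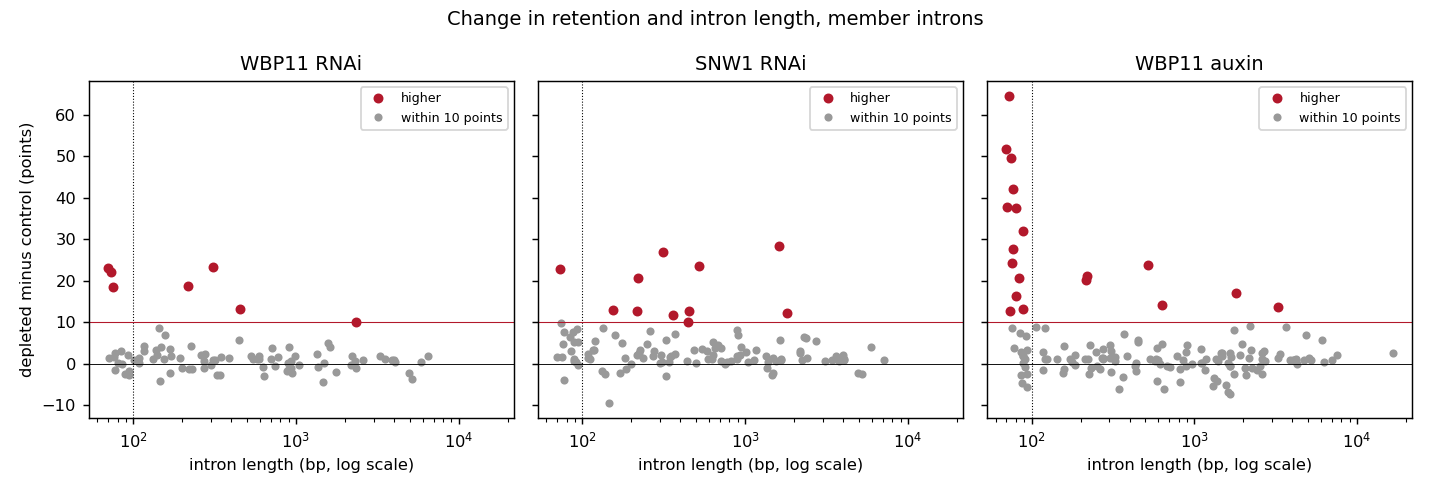
Difference in retention (percentage points, depleted minus control) against intron length on a log axis for the tested replication introns. Red points rose by 10 points or more, and the dotted line marks 100 bp. In the auxin pair 13 of the 28 introns to the left of this line rose.

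The control retention of introns that rose was higher than that of introns that did not. Its median was 6.84% for introns that rose and 1.75% for the others after WBP11 RNAi, 4.93% and 1.25% after SNW1 RNAi, and 6.38% and 1.51% in the auxin pair. Introns near 0% in both libraries are not listed, and what part this plays was not tested. The median GC content of the flanking exon ends (50 bases on each side) was 55.0% for introns that rose and 52.0% for others after WBP11 RNAi, 50% and 51.0% after SNW1 RNAi, and 55.0% and 49.5% in the auxin pair. The upstream exon ended in G before 17 of the 19 introns that rose and 108 of the 132 that did not in the auxin pair. Of the 27 introns that rose anywhere, 26 lie in the coding region. The whole sequence of 27 replication introns, risen or not, could be read; 26 of these start with GT, and all 27 end with AG.

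Of the introns that could be read, 25 lie in coding sequence and 23 of these hold a stop codon in the reading frame of the upstream exon. The intron sequences of RFC4, MCM7, PRIM1 and TIMELESS printed above were read in this way, counting whole codons from the codon that contains the exon-intron boundary or starts at it. The stop follows 5 codons in RFC4 intron 9, 1 codon in MCM7 intron 4, 1 in PRIM1 intron 3, 1 in TIMELESS intron 21 and 3 in TIMELESS intron 23. ORC2 intron 16 has a stop after 5 codons and POLE intron 44 after 7. The GC content was 28.6% for RFC4 intron 9, 48.0% for MCM7 intron 4, 46.5% for PRIM1 intron 3, 53.9% for TIMELESS intron 21 and 55.1% for TIMELESS intron 23. These are properties of the reference sequence, and fates of the transcripts were not measured.

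The spliced reads of the genes, summed per gene and taken as a share of all spliced reads in the table, had different medians in the 3 comparisons. These sums are a level of spliced transcripts at the listed introns only, and in bulk RNA fewer cells in a phase of the cell cycle and less RNA per cell cannot be told apart. After WBP11 RNAi the median log2 ratio was 0.45 over 33 replication genes and 0.02 over all 5816 genes. Of the 33 genes 27 stood above control (81.8%, against 51.6% of all genes). The counting interval lay wholly above control for 22 (66.7%, against 32.3% of all) and below it for 1 (3.03%, against 30.2% of all). DNA2 stood at 328% of control (240 against 77 reads), GINS1 at 288% (134 against 49), MCM5 at 284% (450 against 167), MCM2 at 248% (193 against 82) and MCM3 at 232% (1144 against 519). GINS4 stood at 75.2% (20 against 28 reads), CDC45 at 75.9% (168 against 233) and RFC4 at 92.9% (581 against 659). Of the licensing genes measured, ORC4 alone stood below control (95.8%, 83.7 to 109.7), and the interval of ORC6 included control (134%, 92.8 to 194). Genes outside the set that control origin firing and licensing also stood above control, such as CDC25A (213%), CCNA2 (186%) and GMNN (177%). Among the measured genes of that list only CDC7 stood below (81.0%, 59.8 to 109).

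After SNW1 RNAi the median log2 ratio was 0.08 over 43 replication genes and 0.08 over all 7111 genes, and 25 genes stood above control (58.1%, against 54.6% of all). Intervals lay above control for 13 genes (30.2%, against 38.5% of all) and below for 9 (20.9%, against 30.4% of all). POLE3, a histone-fold subunit of polymerase ε, stood at 275% (576 against 278 reads), TOPBP1 at 198% (554 against 370), MCM2 at 178.5% (295 against 219), MCM5 at 167% (395 against 314) and ORC1 at 158% (49 against 41). CDC6, which loads MCM rings with CDT1, stood at 41.4% (214 against 685 reads, 35.3 to 48.3), CDC45 at 44.6% (64 against 190) and PRIM1 at 46.6% (32 against 91). None of these 3 genes had an intron that rose in that table. Spliced reads of the listed epithelial markers were 83485 after SNW1 RNAi and 283367 in its control, 38968 and 47468 for WBP11 RNAi, and 17824 and 27805 for the auxin pair; their part in the totals was not tested.

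In the auxin pair the median log2 ratio was -0.16 over 43 replication genes and 0.11 over all 6917 genes, and 16 genes stood above control (37.2%, against 55.5% of all). Intervals lay above control for 11 genes (25.6%, against 39.3% of all) and below for 20 (46.5%, against 30.3% of all). CDC6 stood at 143% (706 against 429 reads), RPA1 at 142% (379 against 232), TOPBP1 at 141% (1457 against 899), ORC6 at 136% (433 against 277) and RFC4 at 132% (1147 against 755). POLA1 stood at 24.6% (34 against 120 reads, 16.3 to 36.3), MCM7 at 50.1% (2767 against 4790) and TIMELESS at 57.5% (1254 against 1892). These last 3 genes each had an intron that rose. RFC4 and POLE (125%, 2177 against 1513 reads) also had such an intron, so genes with a rise stood on both sides. The sums include the spliced reads of the risen introns themselves, and those reads also enter the retention ratio. A rise and a lower sum are therefore partly linked by construction. Whether the level of a gene followed its retention was not tested. PCNA stood at 64.6% (5489 against 7378) and POLD2 at 61.8% (3118 against 4380) with no intron that rose.

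**Figure D4:**
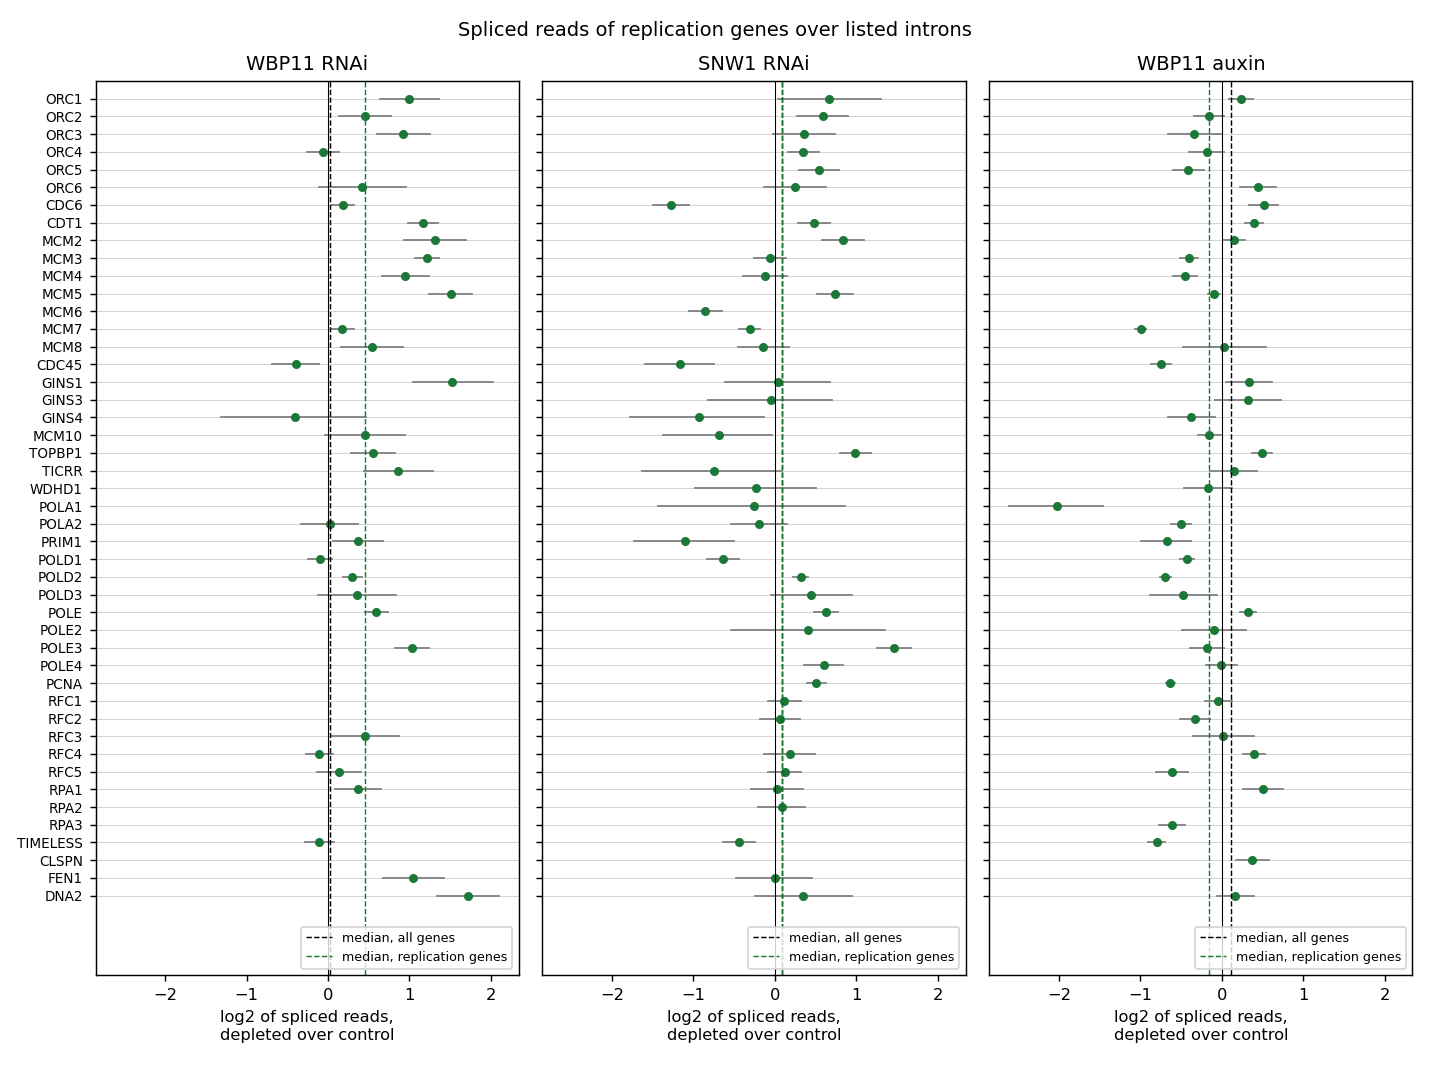
Log2 ratio of spliced reads, depleted over control, of each replication gene as a share of all spliced reads of the table, with exact 95% intervals of counting error as lines. Dashed lines are the medians of all genes (black) and of the replication genes (green). The green line lies at 0.45 against 0.02 after WBP11 RNAi and at -0.16 against 0.11 in the auxin pair.

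Neighbouring groups of the replication pathway were counted by the same rule. Of all introns 9.07% rose after WBP11 RNAi, 16.6% after SNW1 RNAi and 13.8% in the auxin pair, and 1.69%, 0.359% and 1.37% fell. Genes that control origin firing and licensing, such as the kinase CDC7 and the ORC-associated LRWD1, had 0 of 36 introns higher after WBP11 RNAi. They had 3 of 45 higher after SNW1 RNAi (6.67%, in CDK2 and LRWD1) and 7 of 55 in the auxin pair (12.7%, in CCNE2, CDC7, LRWD1, MTBP and TRAIP). The CDK2 intron is marked as overlapping an annotated exon. A 176 bp intron of LRWD1 (chr7:102468378-102468553) stood at 4.19% after WBP11 RNAi and 45.9% after SNW1 RNAi, against 20.7% in their control, so it fell in the WBP11 RNAi comparison (-16.5 points, -31.5 to -4.82) and rose in the SNW1 RNAi comparison (25.2 points, 5.99 to 41.2). Genes of lagging-strand fragment maturation, clamp unloading and chromatin assembly had 0 of 9, 0 of 35 and 2 of 35 (5.71%) higher after WBP11 RNAi, SNW1 RNAi and WBP11 auxin. The rises were in LIG1, the ligase that seals the fragments. It stood at 20.6% against 3.12% at a 437 bp intron and at 34.5% against 23.6% at a 2282 bp intron. The interval of the difference at the longer intron included 0 (-0.599 to 23.5 points). Genes of nucleotide supply had 0 of 7, 0 of 10 and 1 of 12 (8.33%) higher. The rise was in RRM2, the small subunit of ribonucleotide reductase, with 11.5% against 1.48% at a 79 bp intron in the auxin pair. Fork checkpoint genes had 1 of 17 higher (5.88%) and 1 lower after WBP11 RNAi, both in ATRIP, which brings the kinase ATR to RPA-coated DNA. The intervals of both differences included 0 (-1.40 to 36.2 and -42.0 to 0.331 points). The same genes had 5 of 32 higher after SNW1 RNAi (15.6%, in ATRIP, ETAA1 and RAD9A). In the auxin pair 4 of 22 were higher (18.2%, in ATR, ETAA1 and RAD9A) and 1 was lower (ATRIP, interval -19.8 to -2.76 points). An interval wholly above 0 was seen for only 1 of these rises after SNW1 RNAi and 1 in the auxin pair, both in RAD9A.

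The tables list an intron only under conditions that shape these counts. Every listed replication intron reached 1% in at least 1 library of its table and had no warning in at least 1, so introns that stayed below this are not counted. GINS2, PRIM2, POLD4 and TIPIN had no listed intron in any table. With these, 17 genes had none for WBP11 RNAi, among them MCM6, POLA1, PCNA and CLSPN, 7 had none for SNW1 RNAi (RFC3, RPA3 and CLSPN as well), and 8 had none in the auxin table (MCM6, MCM9, RPA2 and FEN1 as well). IRFinder's warnings, mostly of uneven coverage along the intron, stood in either library at 5 of the 7 rises after WBP11 RNAi, 9 of the 11 after SNW1 RNAi and 9 of the 19 in the auxin pair. Just outside the depth minimum were TICRR intron 20 (depth plus spliced reads 9.81 in the SNW1 RNAi library) and MCM10 intron 17 (8.13), and just inside were DNA2 intron 21 (10.2) and TICRR intron 21 (10.9). Just under the size rule were TIMELESS intron 12 after WBP11 RNAi (8.66 points), POLD1 intron 4 after SNW1 RNAi (9.91) and MCM5 intron 6 in the auxin pair (9.01). The smallest rises were at POLE intron 39 after WBP11 RNAi (10.2), POLD1 intron 20 after SNW1 RNAi (10.0) and POLD1 intron 4 in the auxin pair (12.8).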

How the data were processed

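The authors deposited a table for each depletion, which pairs it with its control (3 tables). STAR alignments to hg38 were compared with IRFinder, per the file headers; the processing notes of the submitters list hg38, RSEM and bedtools, with versions not given in the sources used here. Retention ratios were deposited as a fraction per intron. The intron depth is deposited as a coverage signal, and the spliced reads as a count, the larger of the counts at the intron's ends by its column name. None was scaled between libraries by the authors, as far as the headers say. The deposited ratio equals depth over depth plus spliced reads within 0.01 in 699 of 726 values of replication introns. The control of both RNAi tables had identical depths and spliced reads at all 13412 shared introns and was treated as 1 library. No column of another sample was present (0 not used), and the deposited p-values, which rest on reads of single libraries, were not used.

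Differences and intervals were computed from these columns with Python 3.11.15, pandas 2.3.3, numpy and scipy, over all introns at or above the depth minimum of 10. Spliced reads per gene are sums over listed introns for genes with at least 20 reads over both libraries; exact conditional intervals cover counting error. Introns matched GENCODE release 29 introns by coordinates (225 of 225). The size rule and intervals were run on simulated data with counting error only, the same error that the intervals assume. Variation between libraries and uneven coverage were not simulated, so that run does not speak to them. The replication genes, their neighbouring lists and the rules were chosen with earlier results of these data known. Named introns are those past 10 points in 2 or 3 comparisons, the 8 largest rises in each, and the 5 highest and 3 lowest spliced read ratios; others are named where a count of 5 or fewer is spelled out or as examples chosen after their values were seen. Alternatives were other differences, depth minimums, median centring, 1 intron per gene, no warnings, no annotated exons and other scalings of spliced reads.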

Additional observations from a re-analysis of the deposited data

Results flagged for a closer look

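Of the 45 introns tested in both WBP11 depletions, 11 had differences of opposite sign, and at 3 of these 1 of the differences passed 10 points, with 1 library per group on each side. Opposite signs were not counted over all introns. Retention was above control at 59.6% of all introns after WBP11 RNAi and at 72.8% in the auxin pair, so differences of both signs were common. The difference between the comparisons was not tested. TIMELESS intron 21 was 13.2 points above its control in the auxin pair and -2.57 points from its control after WBP11 RNAi. CDT1 intron 9 differed by 14.2 points in the auxin pair and by -3.01 points after WBP11 RNAi. CDC45 intron 14 differed by 27.7 points in the auxin pair and by -1.61 points after WBP11 RNAi. The intervals of all 3 differences after WBP11 RNAi include 0. The experiments also differ in cell line, in the way WBP11 was depleted and in duration, and these cannot be told apart.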

How the results depend on the processing

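No paired analysis was possible because each group has 1 library and the labels carry no replicate numbers that pair samples; for the same reason no replicate could be left out. Shares of all introns are not given for the other rules that follow, so these counts have no background beside them. With a difference of 5 points 32 replication introns rose after SNW1 RNAi and 32 in the auxin pair, and 1 and 6 fell. With 20 points 3 rose after WBP11 RNAi and 5 after SNW1 RNAi. A depth minimum of 50 left 7 rises after SNW1 RNAi. With 1 intron per gene, 2, 4 and 2 introns rose after WBP11 RNAi, SNW1 RNAi and WBP11 auxin, and without introns that carry a warning 2, 2 and 10. Centring each table on its median left 8 rises and gave 1 fall after SNW1 RNAi, where POLE intron 24 (9.14 points), POLD1 intron 20 (7.40) and GINS4 intron 6 (9.64) came under the size rule, as did POLE intron 39 after WBP11 RNAi (9.40). It also turned the small differences of RFC4 intron 9 (-1.04) and MCM7 intron 4 (-1.05) after SNW1 RNAi. Scaling spliced reads by median ratios moved the median log2 ratio after SNW1 RNAi to -0.0166. The causes were not tested. Of the recomputed values, the other 81 counts and medians kept within their limits (1.5 times for counts), and 114 recomputed differences of single introns, from 40 intron and comparison pairs under 3 alternatives each, kept their direction and their side of the size rule. Among the introns that rose, depth limited DNA2 intron 21 and POLA1 intron 9, whose smaller library held 10.2 and 17.6 reads of depth plus spliced reads.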
